A study of Homo sapiens with 3 samples.

Results

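Tubulin and kinesin genes were read from RNA-seq tables of 3 libraries whose labels give wild-type HepG2, a long-established line of human liver cancer cells. Members were the genes on whole chromosomes, leaving out alternate and unplaced sequences, whose gene name is that of an alpha, beta, gamma, delta or epsilon tubulin or of a numbered or C-type kinesin. This naming rule used no measured value and gave 72 of 39320 genes. Of these, 25 were named as tubulins, 5 as subunits of the gamma-tubulin ring complex, whose symbols begin in the same way, and 42 as kinesins. By RefSeq annotation 70 of the 72 are protein-coding, and TUBA3FP and TUBBP5 are not.

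Microtubules are hollow polymers of alpha and beta tubulin dimers. Human cells carry several genes for each, called isotypes, which encode very similar proteins and differ in the tissues that use them. Gamma tubulin, held in a ring complex, starts new microtubules, while delta and epsilon tubulin belong to centrioles. Kinesins are motors that walk along microtubules or take them apart at their ends. A set of kinesins builds the mitotic spindle and the midzone between separating chromosomes, and others carry vesicles, serve cilia or are known mainly from the axons and dendrites of neurons.

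The 3 libraries, replicates 1, 2 and 3, were made from polyA RNA of cells of wild-type genotype, with no treatment named, and form 1 condition, so conditions were not compared. No source used here says whether the replicates were separate cultures, so their spread may be technical. Levels are given in TPM, a measure of transcript abundance per gene length whose total is equal in all libraries, so that different genes can be compared. The tables give no read counts, so the depth is unknown and errors are the SD over the 3 libraries.

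The cell type in the label was checked against its markers. Of 12 hepatocyte genes, 10 were below 1 TPM in every library, as were 25119 of all 39320 genes. Among these 10, the 7 genes ALB, APOA1, APOB, SERPINA1, FGA, FGB and AHSG were listed at 0 in all 3, as were 16014 of all genes. RBP4 and VTN, which also belong to this list, ranged from 10.6 to 11.6 TPM and from 22.7 to 23.7 TPM. These values go against the label, and the libraries are called here libraries labelled HepG2. All 12 genes of a proliferation list reached 10 TPM in every library, as did 40.4% of protein-coding genes. Mitochondrially encoded genes took 19.9%, 20.2% and 20.2% of TPM in the 3 libraries, and the TPM of other genes is lower by that share.

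Of the 72 members, 52 were at 1 TPM or more in every library, a level reached by 33.8% of all genes and by 59.5% of protein-coding genes. At least 10 TPM was reached by 36, against 20.7% of all genes and 40.4% of protein-coding genes. A further 20 were below 1 TPM in every library. Of these, 8 were listed at 0 in all 3, namely TUBA3C, TUBAL3, TUBB8, TUBA3FP, KIF6, KIF19, KIF25 and KIF2B. All members together took 1.04%, 0.982% and 0.995% of TPM, and alpha and beta tubulins alone took 0.848 ± 0.0233% (SD, n = 3).

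Alpha tubulin RNA came mainly from TUBA1B. TUBA1B, a widespread alpha isotype, had 3705, 3534 and 3553 TPM in replicates 1, 2 and 3, or 3597 ± 93.5 TPM (SD, n = 3). By mean level it ranked 12th among the 13753 genes that averaged 1 TPM or more. TUBA1C, another widespread isotype, had 1225, 1122 and 1210.3 TPM, or 1186 ± 55.5 TPM. TUBA4A, found in many tissues and abundant in platelets and muscle, had 241, 227 and 234 TPM, or 234 ± 7.13 TPM. The ranges of these isotypes over the 3 libraries did not overlap.

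TUBA1A, the alpha isotype known from developing neurons, had 146, 129 and 79.8 TPM in replicates 1, 2 and 3, or 118 ± 34.2 TPM (SD, n = 3). Replicate 3 was low and the other libraries lay close together, at 137 ± 11.5 TPM (SD, n = 2) without it. Its neighbours were not low there, since TUBA1B and TUBA1C in replicate 3 lay between their values in the other libraries. The deposited tables place the 3 genes in a row on chromosome 12 of GRCh38. TUBA1B runs from 49127782 to 49131395 and TUBA1A from 49184795 to 49189324, both on the minus strand, and TUBA1C from 49227926 to 49273338 on the plus strand. Their RNAs are alike in stretches. Of all windows of 100 bases in the GENCODE canonical transcript of TUBA1A, 21.5% occurred unchanged in another tubulin gene or pseudogene, against 37.2% for TUBA1B and 12.3% for TUBA1C. How the authors' tool divided reads among such stretches is not given in the sources used here, so these levels carry that uncertainty.

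The other alpha genes were at or near the bottom of the scale. TUBA8, known from muscle and testis, had 1.37, 1.23 and 1.38 TPM, or 1.32 ± 0.0847 TPM (SD, n = 3). The testis isotypes TUBA3D and TUBA3E did not exceed 0.398 TPM in any library, and TUBA3D lies within MZT2A, a gene on the opposite strand at 146 TPM. TUBA4B, which overlaps TUBA4A over 1366 bp on the opposite strand, ranged from 0.560 to 0.735 TPM. Of 6 male germ cell markers, 0 reached 1 TPM in any library and 4 were listed at 0 in all 3. Over all 39320 genes, 25119 were below 1 TPM in every library and 16014 were listed at 0 in all 3.

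Beta tubulin RNA was led by TUBB4B and TUBB. TUBB4B, a widespread isotype that also serves cilia, had 1954, 1841 and 1877 TPM, or 1891 ± 57.8 TPM (SD, n = 3). TUBB, the common isotype of dividing cells, had 1051, 1011 and 1019 TPM, or 1027 ± 20.9 TPM. TUBB6, a further widespread isotype, had 196, 198 and 202 TPM, or 199 ± 3.16 TPM. Each of the 3 stood apart from the next, with no overlap between libraries. TUBB4B lies on chromosome 9 from 137241287 to 137243707 and TUBB on chromosome 6 from 30720201 to 30725426.

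Among the isotypes known from neurons, 3 of 4 beta genes reached 1 TPM in every library, against 59.5% of protein-coding genes. TUBB3, widely used as a neuronal marker, had 145, 151 and 152 TPM in replicates 1, 2 and 3, or 149 ± 3.53 TPM (SD, n = 3). TUBB2A had 63.9, 64.6 and 65.4 TPM, or 64.6 ± 0.728 TPM. TUBB2B had 10.4, 9.66 and 9.39 TPM, or 9.82 ± 0.529 TPM. TUBB4A, abundant in brain and in myelin-forming cells, stayed low at 0.381, 0.417 and 0.230 TPM. The RNAs of TUBB2A and TUBB2B, which lie 66727 bp apart on chromosome 6, are the most alike among the members at 1 TPM or more. Of the 100-base windows of TUBB2A, 55.6% occurred unchanged elsewhere in the family and 53.7% in TUBB2B, so the division between this pair is uncertain. For TUBB3 the share was 5.35%.

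**Figure D1:**
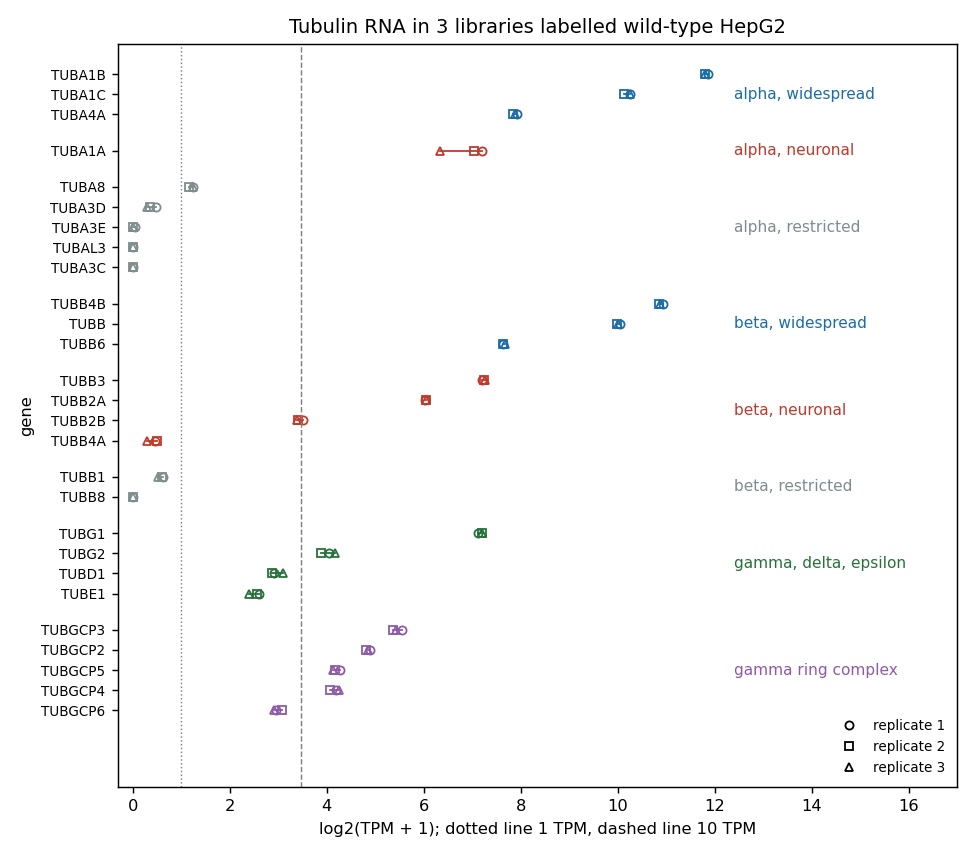
Levels of tubulin genes in the 3 libraries labelled HepG2, as log2(TPM + 1) on the horizontal axis, with 1 line per gene grouped by known use. Symbols are replicates, the bar joins the lowest and the highest library, and the dotted and dashed lines mark 1 and 10 TPM. TUBA1A has the longest bar, reaching down to 79.8 TPM in replicate 3, and the widespread isotypes lie furthest right. TUBA4B, TUBA3FP and TUBBP5, which belong to no group, are not drawn.

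The level of TUBB3 was read against other neuronal genes. Of 16 neuron markers, 11 were below 1 TPM in every library, as were 25119 of all 39320 genes. ELAVL3, ELAVL4, STMN2, NEFM, GAP43 and UCHL1 were listed at 0 in all 3, as were 16014 of all genes. At least 1 TPM in every library was reached by 5 markers. These were INA at a mean of 43.6 TPM, ENO2 at 8.23, SNAP25 at 2.74, MAPT at 1.55 and SYP at 1.30 TPM. RBFOX3, a nuclear protein of mature neurons, ranged from 0.350 to 0.401 TPM. The summed level of the list was 62.5, 58.2 and 54.0 TPM in replicates 1, 2 and 3. INA, an intermediate filament gene, made up 47.5, 43.1 and 40.0 TPM of these sums. In bulk RNA, fewer cells of a type and less RNA per cell cannot be told apart.

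Summed over 11 genes, alpha tubulin reached 5318, 5015 and 5079 TPM in replicates 1, 2 and 3. Summed over 10 genes, beta tubulin reached 3421, 3276 and 3327 TPM. Although the proteins pair in equal numbers, the RNA was unequal in all 3 libraries, with 1.54 ± 0.0149 times as much alpha as beta (SD, n = 3). TUBA1B made up 70.0 ± 0.414% of the alpha sum and TUBA1C 23.1 ± 0.727%. TUBA1A took 2.74%, 2.58% and 1.57%, lower in replicate 3. TUBB4B made up 56.6 ± 0.473% of the beta sum, TUBB 30.7 ± 0.115%, TUBB6 5.95 ± 0.189% and TUBB3 4.47 ± 0.195%. The neuronal isotypes TUBA1A, TUBB2A, TUBB2B, TUBB3 and TUBB4A together took 4.18%, 4.28% and 3.65% of alpha and beta tubulin, or 4.04 ± 0.339% (SD, n = 3). By the deposited coverage in place of TPM, this share was 2.50 ± 0.307%.

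**Figure D2:**
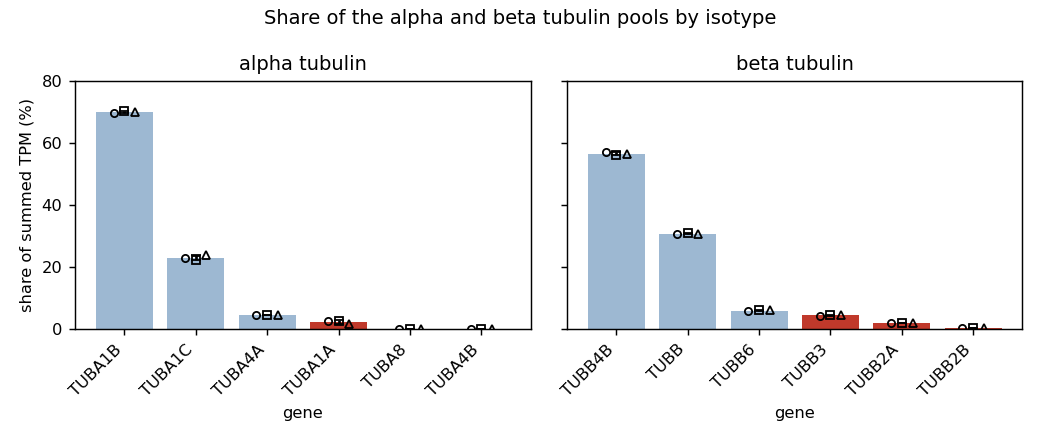
Share of the summed TPM of alpha tubulin (left) and beta tubulin (right) taken by the 6 genes with the highest share in each, in percent. Bars are means over 3 libraries with SD, symbols are replicates (circle 1, square 2, triangle 3), and neuronal isotypes are red. TUBA1B at 70.0% and TUBB4B at 56.6% lead, and the red bars stay below 5%.

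Genes of microtubule nucleation and centrioles were present throughout. TUBG1, the main gamma tubulin, had 139, 146 and 147 TPM in replicates 1, 2 and 3, or 144 ± 4.50 TPM (SD, n = 3). TUBG2, its neighbour on chromosome 17 at a distance of 44009 bp and known mainly from brain, had 15.5, 13.7 and 17.0 TPM, or 15.4 ± 1.67 TPM. TUBD1, the delta tubulin, had 6.49, 6.32 and 7.58 TPM. TUBE1, the epsilon tubulin, was highest in replicate 1, at 5.05, 4.91 and 4.27 TPM. All 5 ring complex subunits had at least 1 TPM in every library, as did 59.5% of protein-coding genes. Ring complex means ranged from 6.91 ± 0.430 TPM for TUBGCP6 to 42.6 ± 3.07 TPM for TUBGCP3. The subunits TUBGCP4 and TUBGCP5 were alike, at 17.0 and 17.2 TPM, and their ranges overlapped.

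The 12 kinesins listed as mitotic were all at 10 TPM or more in every library, where 40.4% of protein-coding genes reached that level. That list leaves out KIF2B, at 0 in all 3 libraries, and the kinetochore motor CENPE, at 13.9 ± 1.55 TPM (SD, n = 3). The median mean of the 12 was 46.1 TPM, with a range from 14.0 to 120.8 TPM. Over all genes that averaged 1 TPM or more, the median was 15.4 TPM. Since many genes of late cell cycle are known to carry a cell cycle homology region (CHR) element or CCAAT boxes near their start site, the promoters of these kinesins were searched for both. Promoters were taken from RefSeq (GRCh38.p14), from 250 bases before to 50 bases after each start site. The letters searched were TTTGAA for the CHR and CCAAT for the box, on both strands, so that TTCAAA and ATTGG also count. A CHR motif stood in 9 of the 13 promoters of the 12 mitotic kinesins, against 15.2% of all 35116 promoters. CCAAT stood in 10 of 13, against 34.6% of all promoters, and both in 8 of 13, against 5.90%.

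The 8 mitotic kinesins below had a CHR motif from 80 bases before to 20 bases after the start site, and were chosen for display because they hold it. Each sequence is the transcribed gene's sense strand, 5′ to 3′, and capitals mark the CHR and CCAAT motifs, which do not overlap each other.
KIF14, chr1:200620732-200620831, minus strand: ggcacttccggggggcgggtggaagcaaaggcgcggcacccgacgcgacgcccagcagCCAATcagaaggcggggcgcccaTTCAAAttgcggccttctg
KIF15, chr3:44761714-44761813, plus strand: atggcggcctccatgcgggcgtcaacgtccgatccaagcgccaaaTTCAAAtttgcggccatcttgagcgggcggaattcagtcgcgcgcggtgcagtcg
KIFC1, chr6:33391743-33391842, plus strand: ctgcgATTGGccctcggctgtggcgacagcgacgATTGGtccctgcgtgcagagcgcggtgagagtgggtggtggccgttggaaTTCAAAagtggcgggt
KIF11, chr10:92593050-92593149, plus strand: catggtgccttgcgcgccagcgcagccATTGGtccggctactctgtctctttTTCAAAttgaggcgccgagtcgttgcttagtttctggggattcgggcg
KIF18A, chr11:28108137-28108236, minus strand: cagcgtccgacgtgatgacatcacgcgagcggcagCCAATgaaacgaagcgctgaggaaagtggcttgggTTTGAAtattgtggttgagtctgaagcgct
KIF23, chr15:69414269-69414368, plus strand: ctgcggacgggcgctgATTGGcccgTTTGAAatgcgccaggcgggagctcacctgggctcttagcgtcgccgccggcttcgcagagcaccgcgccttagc
KIF18B, chr17:44947754-44947853, minus strand: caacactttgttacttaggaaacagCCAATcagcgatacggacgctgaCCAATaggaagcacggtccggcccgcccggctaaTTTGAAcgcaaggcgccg
KIF4A, chrX:70290024-70290123, plus strand: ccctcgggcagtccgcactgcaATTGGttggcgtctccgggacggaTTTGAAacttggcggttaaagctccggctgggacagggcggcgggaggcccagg

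With the start site counted as position 0, the CHR motif began between position -55 in KIF23 and position 4 in KIFC1. In the remaining mitotic kinesins, KIF20B had the CHR motif further from the start site, KIF20A had only CCAAT in the window shown for the others, and KIF2C had neither there. KIF22 has 2 promoters, and in that window 1 held only CCAAT and the other neither motif. Of the neuronal kinesins, 4 of 6 matched a RefSeq promoter, and 0 of their 7 promoters held a CHR motif and 1 a CCAAT. Of the transport kinesins, 1 of 11 promoters held a CHR motif and 4 a CCAAT. The 8 tubulins with at least 100 TPM had 13 promoters, of which 4 held a CHR motif and 8 a CCAAT. Counted by gene, 2 of these 8 tubulins held a CHR motif, against 18.2% of all genes with a promoter. A CCAAT stood in 6 of the 8, against 39.7% of all such genes. Of the 12 spindle partner genes, 8 matched a RefSeq promoter, and of their 9 promoters 6 held a CHR motif and 8 a CCAAT. Of the 12 proliferation genes, 11 matched, and of their 12 promoters 9 held a CHR motif and 9 a CCAAT. A match is a stretch of letters and not a measured binding site, and these libraries do not measure binding.

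The 4 mitotic kinesins with the highest means were KIF20A, KIF22, KIF23 and KIF2C. KIF20A, which carries the chromosomal passenger complex to the midzone, had 126.7, 116.8 and 119.0 TPM in replicates 1, 2 and 3, or 121 ± 5.21 TPM (SD, n = 3). KIF22, which binds chromosome arms, had 103, 101 and 100.2 TPM, or 102 ± 1.41 TPM. KIF23, the motor of centralspindlin, had 86.7, 77.4 and 86.3 TPM, or 83.4 ± 5.26 TPM. KIF2C, which takes microtubules apart at centromeres, overlapped KIF23 at 84.0, 77.2 and 83.0 TPM, or 81.4 ± 3.67 TPM.

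Motors that set up the bipolar spindle differed among themselves. KIF11, which pushes the spindle poles apart, had 66.0, 60.8 and 63.7 TPM, or 63.5 ± 2.61 TPM (SD, n = 3). KIF15, known to be able to take over from KIF11, was the lowest of the list at 15.0, 13.2 and 13.8 TPM, or 14.0 ± 0.936 TPM. KIFC1, which moves the opposite way and gathers spindle poles, had 50.7, 46.1 and 45.9 TPM, or 47.6 ± 2.67 TPM. None of these ranges overlapped.

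A middle group of KIF18B, KIF4A and KIF20B had means from 42.8 to 44.6 TPM, with ranges that overlapped. KIF18B shortens astral microtubules, KIF4A works with PRC1 on chromosomes and the midzone, and KIF20B serves cytokinesis. KIF4A had 47.5, 41.1 and 42.2 TPM, and 2.10% of its 100-base windows occurred unchanged in KIF4B, its intronless copy, which did not exceed 0.0320 TPM. KIF14, a motor of the midbody, had 25.8, 23.7 and 25.1 TPM, or 24.8 ± 1.05 TPM (SD, n = 3). KIF18A, which aligns chromosomes by shortening kinetochore microtubules, had 21.7, 18.9 and 19.4 TPM.

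Of the 12 mitotic kinesins, 11 were highest in replicate 1 and 10 were lowest in replicate 2. Of all 8137 genes with at least 10 TPM in every library, 62.6% were highest in replicate 1, and 31.3% were lowest in replicate 2 and 49.1% in replicate 3. The summed level of the 12 mitotic kinesins was 719, 660.2 and 685 TPM in replicates 1, 2 and 3. The summed proliferation markers lay in the same order, at 1203, 1105 and 1142 TPM, and the part of cell cycle state in this order was not tested. The order depended on the scaling. Median ratios divide replicates 1, 2 and 3 by 1.034, 0.995 and 0.976, which puts replicate 3 above replicate 1 for both sums. Among all 36 members at 10 TPM or more, 29 were highest in replicate 1. The median coefficient of variation was 5.06% for the mitotic kinesins, against 4.88% for all genes at 10 TPM or more.

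By TPM as deposited, none of the neuronal kinesins reached 10 TPM in any library. KIF1A, which carries synaptic vesicle precursors, led this list with 8.99, 9.14 and 8.11 TPM in replicates 1, 2 and 3, or 8.75 ± 0.557 TPM (SD, n = 3). KIF21B, which is enriched in dendrites, had 2.41, 2.37 and 2.43 TPM. KIF17, known from dendritic transport, had 1.15, 1.15 and 1.20 TPM. KIF3C, a partner of KIF3A in neurons, stayed under 1 TPM at 0.790, 0.817 and 0.835 TPM. The neuronal heavy chains of conventional kinesin were at the floor, with KIF5A at 0.0781, 0.0409 and 0.0782 TPM and KIF5C listed at 0, 0 and 0.00733 TPM.

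Thus 3 of 6 neuronal kinesins had at least 1 TPM in every library, against 59.5% of protein-coding genes. At least 10 TPM, as deposited, was reached by 0 of 6, against 40.4% of protein-coding genes. This count depended on the scaling, since KIF1A averaged 10.9 TPM when mitochondrially encoded genes were left out. On the log2(TPM + 1) scale, the median of the mitotic kinesins exceeded that of the neuronal kinesins by 4.67, 4.52 and 4.54 in replicates 1, 2 and 3. The median TPM was 49.1, 44.4 and 45.8 for the mitotic list and 0.970, 0.986 and 1.02 for the neuronal list. KIF15, the lowest of the 12 kinesins listed as mitotic, was above KIF1A, the highest of those listed as neuronal, in every library. KIF2B, at 0 in every library, was on neither list.

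**Figure D3:**
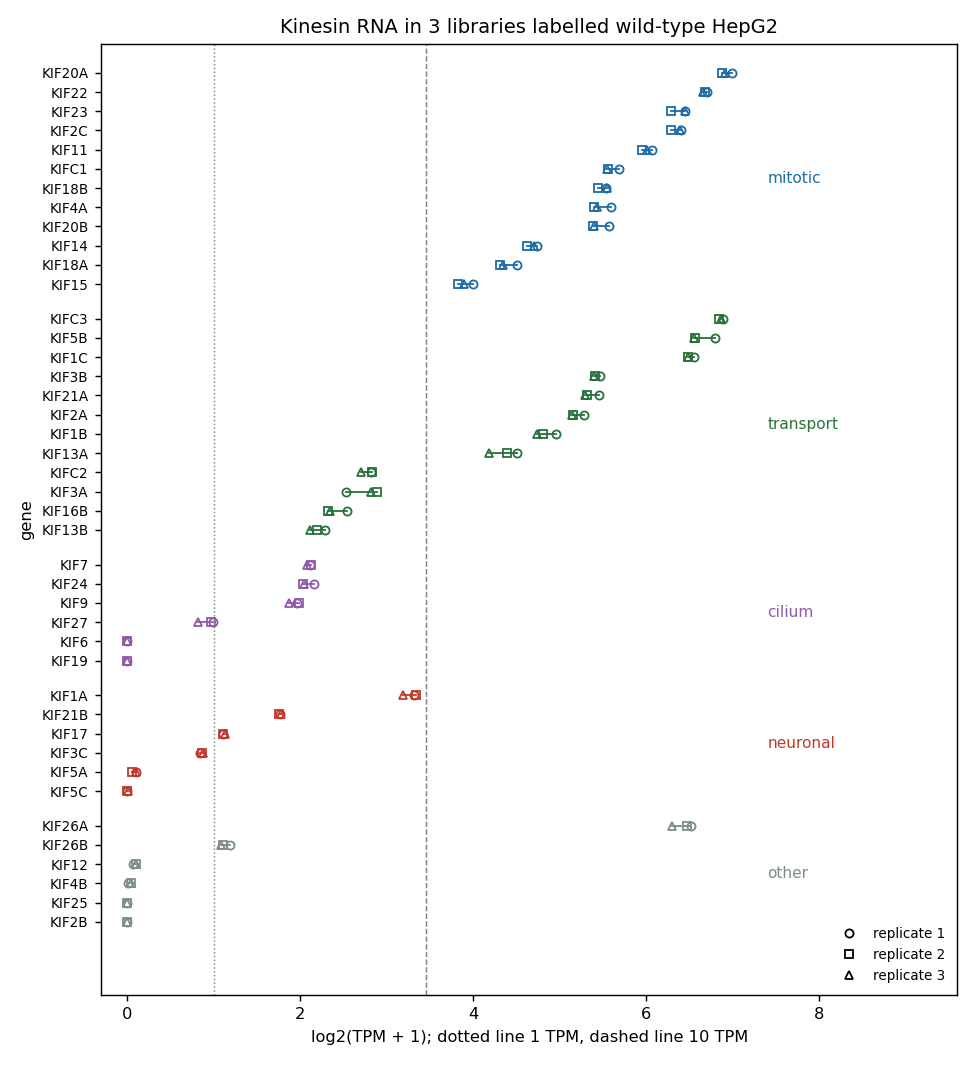
Levels of the 42 kinesins in the 3 libraries labelled HepG2, as log2(TPM + 1) on the horizontal axis, with 1 line per gene grouped by known use. Symbols are replicates, the bar joins the lowest and the highest library, and the dotted and dashed lines mark 1 and 10 TPM. All 12 kinesins listed as mitotic lie to the right of the dashed line and all 6 listed as neuronal to its left.

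Transport kinesins spanned a wide range, from KIF13B at 3.58 TPM to KIFC3 at 116 TPM. All 12 had at least 1 TPM in every library, against 59.5% of protein-coding genes. At least 10 TPM was reached by 8, against 40.4% of protein-coding genes, and the median mean of the 12 was 31.6 TPM. KIFC3, a motor that moves toward minus ends, had 118, 114 and 116 TPM in replicates 1, 2 and 3, or 116 ± 1.98 TPM (SD, n = 3). KIF5B, the widespread heavy chain of conventional kinesin, had 109.8, 93.4 and 93.2 TPM, or 98.8 ± 9.56 TPM, with replicate 1 apart from the others. KIF1C, a vesicle motor, had 93.0, 88.7 and 88.9 TPM, or 90.2 ± 2.40 TPM. KIF3B, a subunit of heterotrimeric kinesin, had 43.4, 41.6 and 41.1 TPM, while its usual partner KIF3A had only 4.80, 6.41 and 6.08 TPM. KIF3A was low in replicate 1, where most members were high. KIF13A, which carries endosomes and their cargo, ranged from 17.2 to 21.8 TPM.

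Of 6 kinesins listed under cilium, KIF7, KIF9 and KIF24 had at least 1 TPM in every library, where 59.5% of protein-coding genes reached that level. The means of KIF7, KIF9 and KIF24 lay between 2.85 and 3.31 TPM, and 0 of the 6 reached 10 TPM. This list does not hold KIF3A and KIF3B, which are given above with the transport kinesins. Of 8 markers of multiciliated cells, 0 reached 1 TPM in every library, and FOXJ1 was listed at 0 in all 3. Of the remaining 6 kinesins, 2 had at least 1 TPM in every library, against 59.5% of protein-coding genes. At least 10 TPM was reached by 1, against 40.4% of protein-coding genes. This was KIF26A, whose head domain is known to lack motor activity. KIF26A had 91.0, 87.7 and 77.9 TPM, or 85.5 ± 6.81 TPM (SD, n = 3), while its relative KIF26B averaged 1.19 TPM.

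Levels of 11 pairs of related genes were compared within each library. The measure was the log2 ratio of TPM with 1 added to each value, tested by flipping signs in an exact permutation test (two-sided). With 3 libraries this test cannot go below 0.25. Each of the 11 pairs had the same direction in 3 of 3 libraries, with an exact p = 0.25 and an adjusted p = 0.25 (Benjamini-Hochberg). None could therefore pass a threshold of 0.05, and the differences are given against the spread between libraries. The genes named as widespread or mitotic were the higher ones in all 11 pairs. Since the lists were chosen with earlier results of these data known, this shared direction is a description only. In the pair of KIF2C and KIF2A, the lower gene KIF2A is itself listed as a transport kinesin.

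TUBB4B exceeded TUBB4A by 10.46 ± 0.12 (log2, SD, n = 3), the widest gap, and TUBB exceeded TUBB2B by 6.57 ± 0.05 and TUBB3 by 2.77 ± 0.06. TUBA1B exceeded TUBA1A by 4.66, 4.76 and 5.46 in replicates 1, 2 and 3, where replicate 3 is set apart by the low TUBA1A. TUBG1 exceeded TUBG2 by 3.15 ± 0.15. The widest kinesin gaps were those of KIF5B. KIF5B exceeded KIF5A by 6.55 ± 0.12 and KIF5C by 6.63 ± 0.14. Where the lower gene is near 0 the gap depends on the added value, and with 0.1 added it was 9.91 for KIF5C and 12.09 for TUBB4A.

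KIF3B exceeded KIF3C by 4.57 ± 0.06 and KIF21A exceeded KIF21B by 3.59 ± 0.08. The smallest gaps were 1.55 ± 0.08 between KIF1B and KIF1A, or 2.93-fold, and 1.17 ± 0.07 between KIF2C and KIF2A, or 2.25-fold. KIF2A and KIF2C both take microtubules apart, KIF2A also outside mitosis, at 37.8, 34.6 and 34.3 TPM. KIF1B, a widespread vesicle and organelle motor, had 30.0, 27.1 and 25.6 TPM.

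**Figure D4:**
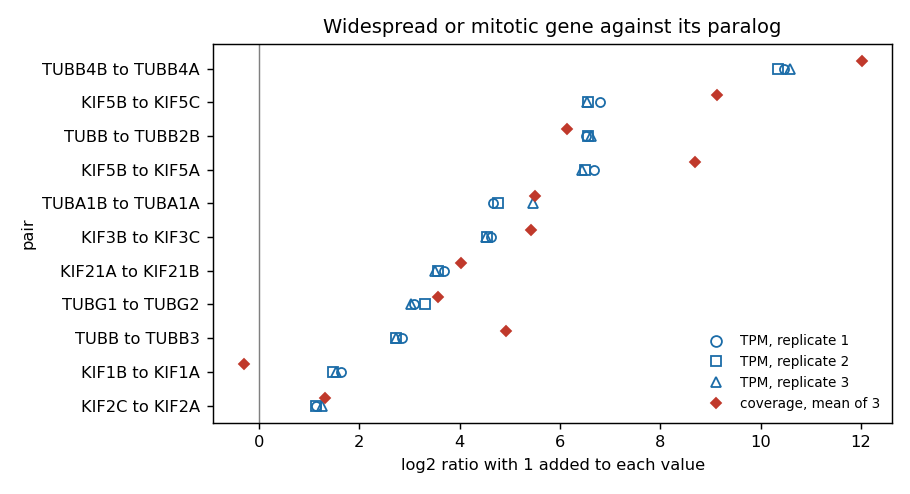
Log2 ratio of the widespread or mitotic gene to its relative for 11 pairs, with 1 added to each value. Blue symbols are the 3 libraries by TPM and red diamonds the mean over libraries by deposited coverage. All blue symbols lie above 0, and the diamond for KIF1B to KIF1A lies below it at -0.30.

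The order of some genes depended on which deposited column was read. Coverage is the mean depth over the bases of a gene and follows FPKM up to a highest ratio of 13.3, 12.8 and 11.5 in replicates 1, 2 and 3. Of 64 members above 0 in at least 1 library, 9 had under 0.5 of the highest ratio. The same share over all genes is not given here, so whether such low ratios are particular to the members is unknown. TUBB3 stood 7th among members by TPM and 26th by coverage. Its coverage of 138 ± 7.51 was below the 357 ± 20.7 of TUBB2A (SD, n = 3), although its TPM was higher, and the log2 ratio of the pair went from 1.20 by TPM to -1.37 by coverage. KIF1B, with a mean coverage of 41.2, lay below KIF1A at 51.0, so that this pair reversed as well.

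Further members that lost places by coverage were KIFC3 from 11th to 23rd, KIFC1 from 20th to 31st, KIF13A from 32nd to 45th and TUBGCP5 from 33rd to 40th. TUBA1C had a mean coverage of 1817 against 4204 for TUBB, and so stood 4th instead of 3rd. By coverage TUBA1B took 86.3% of alpha tubulin and TUBB4B 67.3% of beta tubulin. The places of TUBA1B and TUBB4B at the top were the same by both columns. What sets the low coverage of these genes was not tested.

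**Figure D5:**
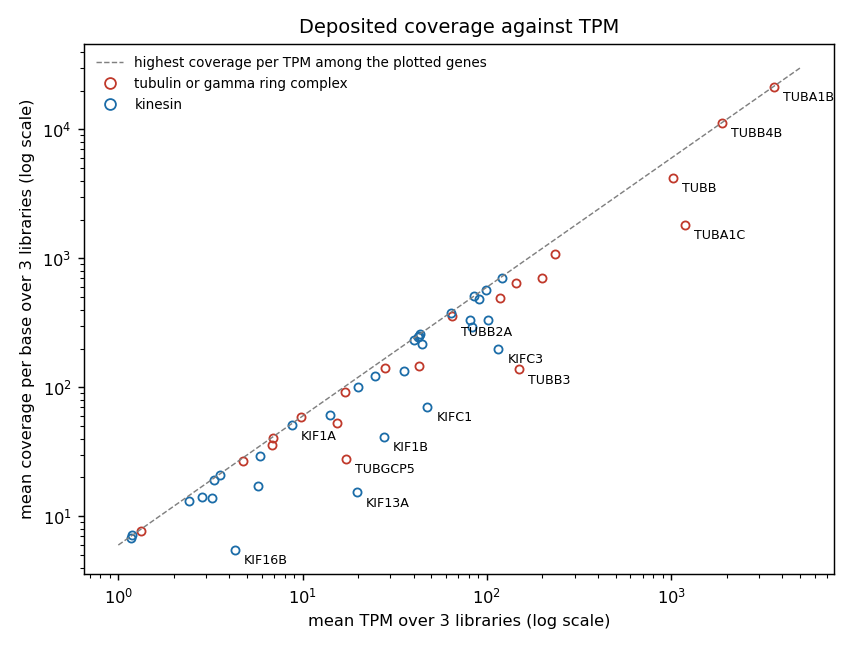
Mean coverage per base against mean TPM for members that averaged 1 TPM or more, both on log scales. The dashed line is the highest coverage per TPM among the plotted genes, and labels mark genes with low coverage for their TPM together with reference genes. TUBB3 lies under the line at a coverage of 138, below TUBB2A at 357.

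Neighbours in the order of levels often could not be separated. Among the 36 members at 10 TPM or more, 20 of 35 steps from a gene to the next had overlapping ranges. The 6 highest genes, TUBA1B, TUBB4B, TUBA1C, TUBB, TUBA4A and TUBB6, were each apart from the next. Between replicates, log2(TPM + 1) varied by more than 1 in 0 of the 52 members that averaged 1 TPM or more, and in 1.26% of all 13753 such genes. The largest ranges were 0.86 for TUBA1A, 0.35 for KIF3A and 0.32 for KIF13A. The median coefficient of variation of members at 10 TPM or more was 4.59%, against 4.88% for all genes at that level.

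Partners of tubulins and kinesins were taken from lists by function. Of protein-coding genes, 59.5% reached 1 TPM in every library and 40.4% reached 10 TPM. All 12 spindle partners reached 10 TPM in every library. PRC1, which bundles midzone microtubules and binds KIF4A, led with 259, 239 and 252 TPM in replicates 1, 2 and 3, and TPX2, which brings Aurora A to the spindle, had 231 ± 5.68 TPM (SD, n = 3). HMMR at 41.4 ± 3.87 TPM and the kinetochore motor CENPE at 13.9 ± 1.55 TPM were the lowest. All 11 genes for tubulin folding also had at least 10 TPM, from TBCC at 15.0 ± 0.410 and TBCE at 21.5 ± 0.570 TPM up to PFDN5 at 426 ± 11.8 and TBCA at 439 ± 16.1 TPM. TBCA receives beta tubulin from the chaperonin, and PFDN5 is part of prefoldin, which delivers it there.

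Kinesin light chains and adaptors reached 10 TPM in 4 of 6 genes. KLC1, a light chain of conventional kinesin, had 99.8 ± 4.64 TPM (SD, n = 3), and KIFBP, which binds several kinesin heads, had 49.2 ± 1.77 TPM. KLC4 had 9.41 ± 0.574 and KLC3 2.00 ± 0.0530 TPM. Of 18 tubulin-modifying enzymes, 15 had at least 1 TPM and 7 at least 10 TPM. TTLL12, a member of the tubulin ligase-like family, was highest at 80.2 ± 2.34 TPM, and TTL, which adds the terminal tyrosine back to alpha tubulin, had 32.3 ± 3.39 TPM. The ligase-like genes TTLL1 at 0.266 ± 0.0414 TPM and TTLL9 at 0.0625 ± 0.0414 TPM were lowest.

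Of 17 genes for microtubule-associated proteins, 13 had at least 1 TPM and 11 at least 10 TPM. STMN1, which binds free tubulin dimers and is known from dividing cells, had 268 ± 13.8 TPM, and the plus-end protein MAPRE1 had 207 ± 3.97 TPM (SD, n = 3). The neuronal relatives of STMN1 were lowest, with STMN2 listed at 0 in all 3 libraries and STMN4 at 0.0152, 0.0168 and 0.0227 TPM.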

How the data were processed

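RNA-seq was analysed in 3 libraries labelled wild-type HepG2. The submitters' processing notes name FastQC 0.11.8, Trim Galore 0.6.2, STAR 2.6.1a, StringTie and GRCh38, and the reads were 150 bp paired-end. The annotation and the strand setting are not given in the sources used here. The authors deposited 1 table per library with TPM, FPKM and coverage for each gene. TPM deposited by the authors is scaled for gene length and library. FPKM in the deposited tables is proportional to it. The coverage that the authors deposited, a mean read depth per base, depends on library size.

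Genes with the same name, strand and coordinates in all tables were joined (43389, with at most 4 left out of a table), and those on whole chromosomes, not alternate or unplaced sequences (39320) were used. TPM was used as deposited, with a pseudocount of 1 on the log2 scale. Named were all alpha to epsilon tubulins at 1 TPM or more in every library, mitotic and neuronal kinesins, the 5 highest other kinesins, the 3 members with the largest range, both genes of each pair, members at 0 and the highest and lowest 2 genes of each partner list. Further genes were named after their values were seen. The members and lists were chosen with earlier results of these data known. Pairs were tested by flipping the signs of the 3 log2 ratios in an exact permutation test (two-sided), adjusted by Benjamini-Hochberg over 11 pairs. Canonical transcripts came from GENCODE and gene types and promoters from RefSeq. The range was tested on simulated data, and the permutation test on fixed inputs with known results. The work used matplotlib 3.10.9, statsmodels 0.14.6, pandas 2.3.3, scipy 1.17.1 and numpy 2.4.6 under Python 3.11.15. The alternatives were each replicate left out, other pseudocounts and limits, scaling by median ratios or without mitochondrial genes, all references, and coverage in place of TPM.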

Additional observations from a re-analysis of the deposited data

How the results depend on the processing

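Depth is unknown, and levels of near-identical isotypes depend on how reads were shared among them. With coverage in place of TPM, the neuronal share of alpha and beta tubulin was 2.50% (4.04% by TPM), the log2 ratio of beta to alpha tubulin was -0.57 (-0.62 by TPM) and the median gap between mitotic and neuronal kinesins was 5.26 (4.58 by TPM). The gap was 5.43 with a pseudocount of 0.1. The log2 ratio of KIF1B to KIF1A reversed to -0.30 by coverage, and that of TUBB3 to TUBB2A to -1.37. The comparison of TUBB3 with TUBB2A and the coverage shares of TUBA1B and TUBB4B were chosen after seeing the data. The cause was not tested. The other 10 pairs kept their direction under every alternative run. Leaving out each replicate in turn gave a neuronal share between 3.92% and 4.23% and a median gap between 4.53 and 4.61. The count of members at 1 TPM or more was 58 with a limit of 0.1 TPM and stayed at 52 under the other alternatives that keep that limit. The count at 10 TPM was 38 instead of 36 without mitochondrially encoded genes, which raised TPM by 1.25 times in each library. The members gained were KIF1A, at a mean of 10.9 TPM, and TUBB2B, at 12.3 TPM, both listed as neuronal. No paired analysis was possible because the libraries form 1 condition.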

Other observations

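Several members overlap genes on the opposite strand in the deposited tables, and without a stated strand setting their reads cannot be told apart there. TUBGCP4 (17.0 TPM) overlaps TP53BP1 (26.8 TPM) over 6708 bp, TUBGCP2 (27.9 TPM) overlaps ZNF511 (32.5 TPM) over 3449 bp, and KIF24 (3.23 TPM) overlaps NUDT2 (21.8 TPM) over 4015 bp. TUBB1, the beta isotype of platelets, had 0.531, 0.523 and 0.444 TPM and overlaps ATP5F1E (109.6 TPM) over 1180 bp. Of 6 platelet markers, GP1BA alone had at least 1 TPM in every library, at 2.51 ± 0.224 TPM (SD, n = 3). A further 4 were listed at 0 in all 3, as were 16014 of all 39320 genes. A further 14 gene entries of the tubulins and kinesins lie on alternate references, 7 of them for TUBB, and all were listed at 0 TPM in every library.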
